A study of Mus musculus with 2 samples.

Results

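The 10 genes that encode precursors of neuropeptides of the mouse cortex, Cck, Npy, Sst, Vip, Cort, Crh, Adcyap1, Pdyn, Pnoc and Nts, were followed across 2 long-read RNA libraries. They were chosen by name, as the rows of both deposited transcript tables that carry one of the 10 gene symbols. All 10 had reads in both libraries, of 18907 annotated genes with a read in either. They took 47 of the 132801 transcript models with reads in replicate 1 and 56 of the 133303 in replicate 2.

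Total RNA of left cerebral cortex tissue from adult B6NCrl mice of 6 months was sequenced as long reads, each of which can span a whole transcript, and the labels number the libraries as biological replicates 1 and 2 of 1 group. No treatment, genotype or transgene separated them, so no conditions were compared. Both tissue samples carry 1 donor record, and the labels do not say whether they came from separate animals, so the spread between libraries may be technical. The labels call the tissue male in a description and the sex not collected in another field. Replicate 1 held 1306424 reads and replicate 2 held 1304133, so that a single read stood for 0.765 and 0.767 CPM, the count divided by the library total and multiplied by 1e6. Markers of cortical excitatory neurons and of interneurons all had reads in both libraries. Single markers differed between replicates 1 and 2 in both directions, as with Slc17a7 (99.5 and 27.6 CPM) and Rorb (83.4 and 152 CPM). In the test described below, 1 excitatory marker, Slc17a7, was called higher in replicate 1 and none lower. Of all genes tested, 5.44% were called higher and 1.61% lower. None of the 5 interneuron markers tested was called. Summed levels, which hide such differences, were 433 and 383 CPM for the 7 excitatory markers and 345 and 407 CPM for the 6 interneuron markers. Markers of neighbouring tissue were lower, at 151 and 124 CPM in sum for striatum, 56.6 and 37.6 CPM for choroid plexus, 17.6 and 23.0 CPM for thalamus, 6.12 and 11.5 CPM for hippocampus, 6.12 and 2.30 CPM for olfactory bulb (with Eomes at 0) and 6.12 and 5.37 CPM for hypothalamus. Their part in the levels below was not tested. In whole tissue, fewer cells of a type and less RNA per cell cannot be told apart.

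A neuropeptide is made as part of a larger precursor that enters the secretory pathway, is cut at basic residues by prohormone convertases, trimmed and often amidated, and is stored in dense-core vesicles until release. Most then act on G-protein-coupled receptors. In the cortex, several of these genes mark classes of GABA-releasing interneurons, among them Sst, Vip and Npy, whereas Cck is made both by interneurons and by pyramidal cells. The products fall into families that share sequence: somatostatin with cortistatin, VIP with PACAP, and dynorphin with nociceptin.

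The first sequences below show how close the related peptides Sst and Cort are in the part that encodes the mature hormone. Each is the last 42 coding bases before the stop codon on the transcript with most reads, 5′ to 3′, from the GENCODE M21 transcripts (build mm10), on the minus strand at chr16:23889732-23889773 for Sst and chr4:149125267-149125308 for Cort. Capitals mark the longest run the pair shares, 21 bases.
Sst: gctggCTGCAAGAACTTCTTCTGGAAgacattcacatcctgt
Cort: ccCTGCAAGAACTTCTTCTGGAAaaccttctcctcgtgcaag
Aligned without gaps, 31 of 39 bases were identical (79.5%). Their reads were nevertheless given to genes on different chromosomes, each with its own 2-exon transcript.

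The second set shows where the cAMP response element, a DNA motif known for the gene of somatostatin, stands before the start sites of these genes. The motifs TGACGTCA, TGACGT and TGACG, which overlap each other, and TATAAA were searched on both strands in RefSeq promoter windows of build GRCm38.p6 that run from 250 bases before to 50 bases after a start. A window was at hand for 8 of the 10 genes, all but Crh and Pnoc. TGACGTCA was found in 1 of the 8, Sst, against 2.03% of 27025 genes in the table. The shorter TGACGT was found in 3 (Sst, Vip and Adcyap1), against 8.37% of genes, and TGACG in 6, against 23.0%. TATAAA was found in 2, Vip and Adcyap1, against 15.7%. Each stretch is 30 bases on the gene's own strand, and capitals mark the longest of the TGACG motifs, or CGTCA where it lies on the other strand.
Sst (48 bases before the start, chr16:23890874-23890903, minus strand): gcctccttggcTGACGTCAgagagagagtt
Vip (79 bases before the start, chr10:5639127-5639156, plus strand): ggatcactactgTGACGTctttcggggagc
Adcyap1 (91 bases before the start, chr17:93198914-93198943, plus strand): ggactaggatgcTGACGTcttttactgata
Cck (47 bases before the start, chr9:121495725-121495754, minus strand): tcctgctggactgCGTCAgcactgggtaaa
Cort (18 bases before the start, chr4:149126765-149126794, minus strand): gctccggcttgtgCGTCAccgcgtgagtgt
Nts (166 bases before the start, chr10:102490568-102490597, minus strand): aattagggaagatCGTCActttccatcaag
These are matches of letters only. Nothing in the libraries measured binding or promoter activity. For Sst, the RefSeq start (23890844) lies inside the first exon of the GENCODE model, which begins at 23890958. The Sst stretch shown lies inside that exon too. For Nts, the RefSeq start (102490418) also lies inside the first GENCODE exon, which begins at 102490486. The Adcyap1 motif shown lies 242 bases before another RefSeq start, 93199168, where the leading Adcyap1 transcript begins.

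Cck and Npy carried most of the reads of the 10 genes. Together the 10 genes had 1352 CPM in replicate 1 and 1528 CPM in replicate 2, a mean of 1440 ± 125 CPM (SD, n = 2). Cck took 70.6% and 65.9% of their reads, and Cck and Npy together took 88.1% and 85.0%. Levels therefore ran over a wide range, and the smallest, that of Nts, rested on 2 and 8 reads.

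**Figure D1:**
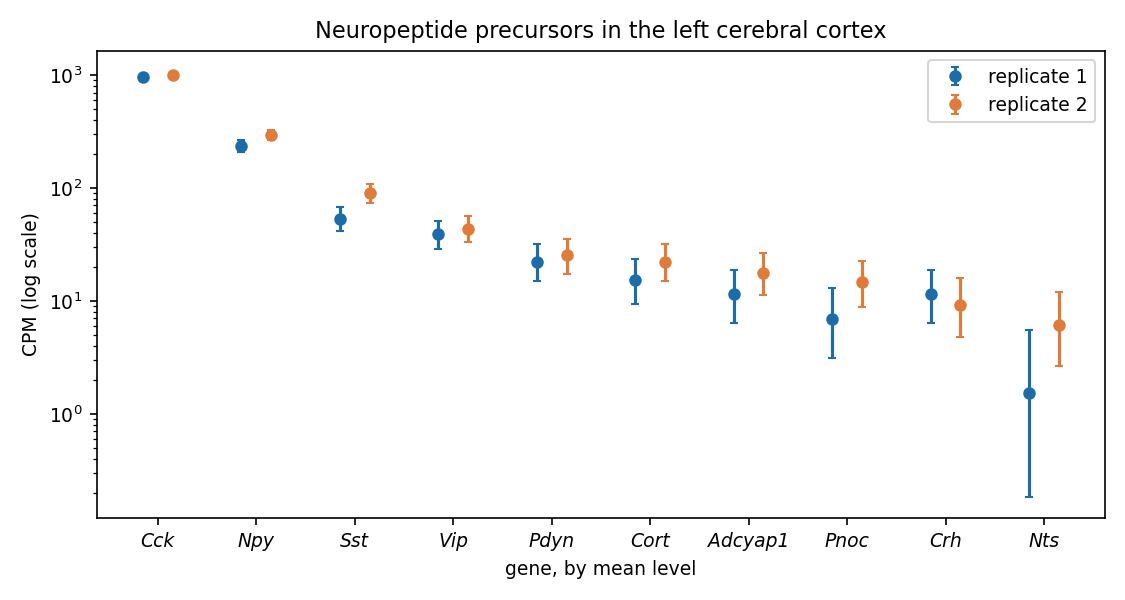
Level in CPM of the 10 precursor genes (log axis) in replicate 1 (left point, blue) and replicate 2 (right point, orange), ordered by mean. Bars are exact Poisson intervals (95%) of each count. Cck stands at 955 and 1008 CPM and Nts at 1.53 and 6.13 CPM, and the points of the 2 libraries lie close together for Cck and Vip.

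Scaled to the length of the transcript with most reads, the order by mean was Cck, Npy, Sst, Cort, Vip, Pdyn, Crh, Pnoc, Adcyap1 and Nts. Cck had 1381 and 1458 CPM per kilobase, and Npy had 417 and 516. On this scale Cck stood 3.32-fold above Npy in replicate 1 and 2.82-fold in replicate 2. In CPM without length it stood 4.05-fold and 3.45-fold above Npy. Because a long read can span a whole transcript, counts need not grow with length, and scaling by length may then place long transcripts too low. Neighbours whose library ranges overlapped, so that their order was not resolved beyond the spread, were Cort and Vip, Pnoc and Adcyap1, and Adcyap1 and Nts. On the scale of CPM without length the order was Cck, Npy, Sst, Vip, Pdyn, Cort, Adcyap1, Pnoc, Crh and Nts, and the ranges of neighbours overlapped at each step between Pdyn and Crh. Cort moves up with the length term because its transcript is short, at 677 bases, against 2386 for Pdyn and 1530 for Vip.

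Cck (ENSMUSG00000032532.7, mm10 chromosome 9, 121489824 to 121495694, minus strand) encodes cholecystokinin, which acts in the brain mainly on the receptor Cckbr. With 1247 reads in replicate 1 and 1314 in replicate 2, it stood at 955 and 1008 CPM, a mean of 981 ± 37.5 CPM (SD, n = 2). The log2 ratio of replicate 1 over replicate 2 was -0.08, with a 95% interval of -0.19 to 0.03. Cck was 108th in mean CPM of the 11838 genes with at least 10 reads.

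Npy (ENSMUSG00000029819.6, chromosome 6, 49822710 to 49829507, plus strand) encodes neuropeptide Y. Replicate 1 held 308 of its reads and replicate 2 held 381, which is 236 and 292 CPM (264 ± 39.9 CPM, SD, n = 2). The log2 ratio was -0.31 (-0.53 to -0.09), with an adjusted p of 0.0434 in the exact binomial test of the 2 counts. The difference was under 2-fold, and the adjusted p rose above 0.05 with known models alone (0.0766), with TMM scaling (0.0740) and with no minimum of reads (0.0686).

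Sst (ENSMUSG00000004366.4, chromosome 16, 23889573 to 23890958, minus strand) encodes somatostatin, an inhibitory peptide and the name of a main class of cortical interneurons. The 70 reads in replicate 1 and 117 in replicate 2 gave 53.6 and 89.7 CPM (71.6 ± 25.6 CPM). The log2 ratio of -0.74 (-1.19 to -0.30) had an adjusted p of 0.00695 in the exact binomial test, the lowest of the 10 genes, and replicate 2 was 1.67-fold higher. Cort (ENSMUSG00000028971.4, chromosome 4, 149125034 to 149126763, minus strand) encodes cortistatin, which binds somatostatin receptors and is named for its place in the cortex. Its 20 reads in replicate 1 and 29 in replicate 2 gave 15.3 and 22.2 CPM (18.8 ± 4.90 CPM), with a log2 ratio of -0.53 (-1.44 to 0.33). Per Sst read, Cort had 28.6% as many reads in replicate 1 and 24.8% in replicate 2.

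Vip (ENSMUSG00000019772.5, chromosome 10, 5639218 to 5647617, plus strand) encodes vasoactive intestinal peptide, the marker of interneurons that act largely on other interneurons. It was counted 51 times in replicate 1 and 57 times in replicate 2, for 39.0 and 43.7 CPM (41.4 ± 3.30 CPM), and a log2 ratio of -0.16 (-0.74 to 0.41). Adcyap1 (ENSMUSG00000024256.7, chromosome 17, 93199017 to 93206537, plus strand) encodes PACAP, which shares receptors with VIP and has its own in Adcyap1r1. Its 15 reads in replicate 1 and 23 in replicate 2 gave 11.5 and 17.6 CPM (14.6 ± 4.35 CPM). Its log2 ratio was -0.60, and the interval (-1.66 to 0.38) held 0.

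Pdyn (ENSMUSG00000027400.11, chromosome 2, 129686565 to 129699844, minus strand) encodes the dynorphins, ligands of the kappa opioid receptor Oprk1. Its reads numbered 29 in replicate 1 and 33 in replicate 2, giving 22.2 and 25.3 CPM (23.8 ± 2.20 CPM), and its log2 ratio was -0.19 (-0.96 to 0.58). That near balance held over all models only, as set out below for its spliced reads. Pnoc (ENSMUSG00000045731.6, chromosome 14, 65400673 to 65425472, minus strand) encodes the precursor of nociceptin, the ligand of Oprl1. Replicate 1 gave 9 reads and replicate 2 gave 19, so that it stood at 6.89 and 14.6 CPM (10.7 ± 5.43 CPM), with a log2 ratio of -1.04 (-2.41 to 0.13) and an adjusted p of 0.251 in the exact binomial test.

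Crh (ENSMUSG00000049796.4, chromosome 3, 19693401 to 19695396, minus strand) encodes corticotropin-releasing hormone, which the hypothalamus uses to drive the stress axis and which some cortical interneurons also make. Its 15 reads in replicate 1 and 12 in replicate 2 gave 11.5 and 9.20 CPM (10.3 ± 1.61 CPM). It was the only one of the 10 with more reads in replicate 1 (log2 ratio 0.31, -0.87 to 1.55). Nts (ENSMUSG00000019890.4, chromosome 10, 102481756 to 102490486, minus strand) encodes neurotensin. Its 2 reads in replicate 1 and 8 in replicate 2 gave 1.53 and 6.13 CPM, and replicate 1 was under the 3 counts used here as the limit of detection. The log2 ratio of -1.77 had an interval of -5.28 to 0.32.

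None of the 10 genes passed both thresholds for a difference between the libraries, an adjusted p under 0.05 and a ratio of at least 2-fold, against 7.05% of the 11838 genes tested. By the exact binomial test 2 of the 10, Npy and Sst, had an adjusted p under 0.05, against 12.8% of all genes tested. The same 2 had an unadjusted p under 0.05, against 22.8% of all genes tested. Of all genes tested, 5.44% (644) were called higher and 1.61% (191) lower in replicate 1. The log2 ratio was below 0, with more reads in replicate 2, in 9 of 10 precursors, with a median of -0.42. With known or with spliced models alone Pdyn turned positive. Over all genes tested 54.0% lay below 0 and the median was -0.0025. This test sets a pair of libraries against counting noise and says nothing of a condition.

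**Figure D2:**
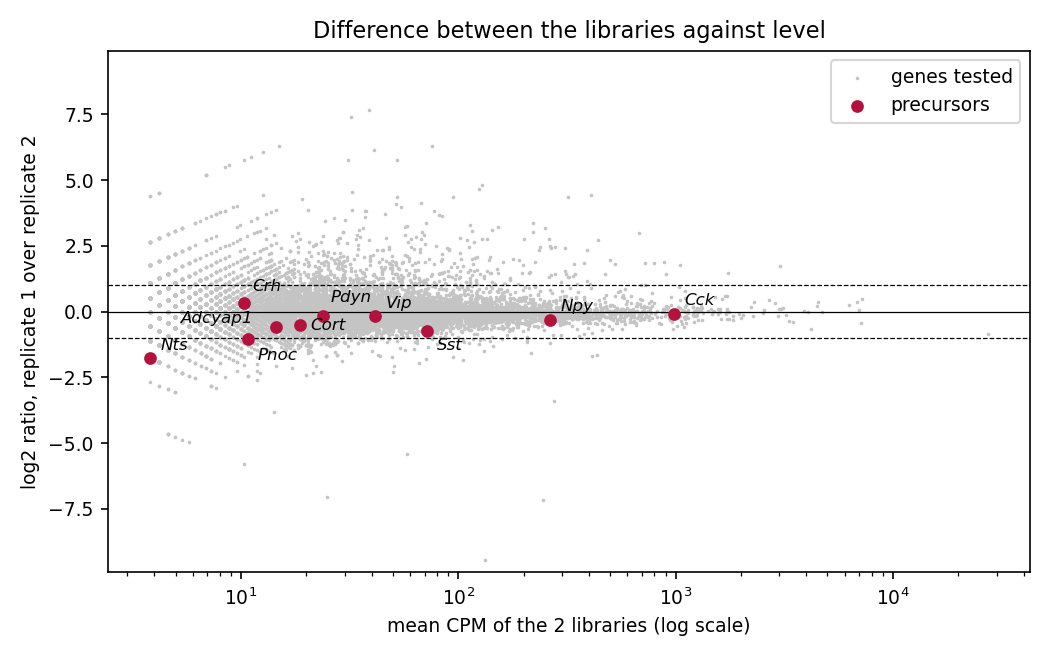
Log2 ratio of replicate 1 over replicate 2 (0.5 reads added) against mean CPM (log axis) for the 11838 genes with at least 10 reads (grey) and the 10 precursors (red). Dashed lines mark a 2-fold difference. Cck lies near 0 at the right, Sst at -0.74, and Pnoc and Nts reach past the lower line, where genes of few reads scatter widely.

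How completely the reads matched annotated transcripts differed widely among the 10 genes. TALON, the program that made the deposited models, classes a read as known when its whole chain of introns is that of an annotated transcript. A read with only part of such a chain is ISM. NIC models have a chain put together in a way no annotated transcript has, from splice sites already known to the program. NNC models hold a splice site outside the annotation, and genomic ones match none of these. The classes are as deposited, and the Vip reads classed NIC (1 and 8) carry acceptors that GENCODE M21 does not list. Known models held 92.3% and 87.3% of the reads of the 10 genes, against 71.9% and 67.7% over all annotated genes. Cck and Npy held most of these reads. Without Cck the share was 81.1% and 77.9%, and without Cck and Npy 65.9% and 62.4%.

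**Figure D3:**
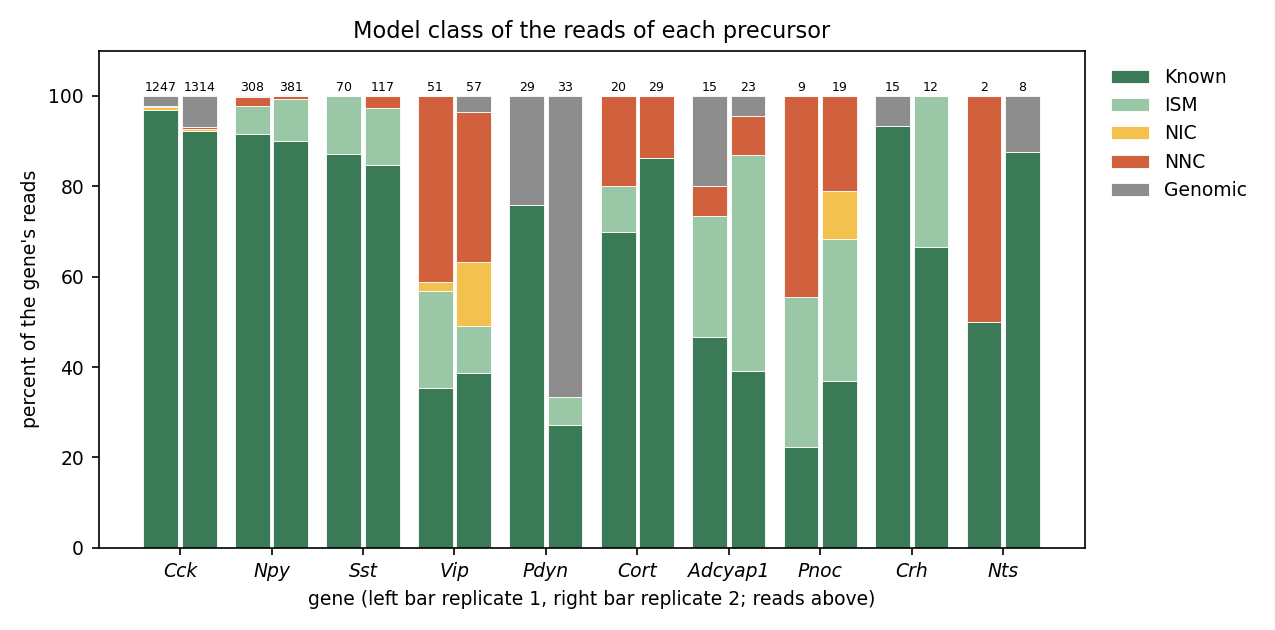
Share of each precursor's reads by model class, with replicate 1 on the left and replicate 2 on the right of each pair and the number of reads above. Known models (dark green) make up over 90% of Cck and Npy reads in both libraries and under 40% of Vip reads, and genomic models (grey) take 24.1% of Pdyn reads in replicate 1 and 66.7% in replicate 2.

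Cck reads were known in 97.0% of cases in replicate 1 and 92.2% in replicate 2. Reads of an unspliced model inside the last exon made up 2.25% (28 reads) in replicate 1 and 6.77% (89 reads) in replicate 2. The known share differed beyond counting noise (Fisher's exact test, adjusted p = 3.41e-06) but by 4.79 percentage points, under the 10 points required. Npy was known in 91.6% and 90.0% of reads. The next most frequent Npy model, classed ISM, lacked the noncoding exon 1, with 19 and 34 reads. A read of Npy-201 that lost its start before the first intron would match this model too, so these cannot be told apart here. Sst was known in 87.1% and 84.6%, and its remaining reads were unspliced models that matched the last exon, 9 in replicate 1 and 15 in replicate 2, and in replicate 2 alone 3 reads with an added upstream exon.

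Pdyn was the 1 precursor whose known share was called different, of 6 with at least 20 reads in each library, against 7.54% of the 6644 genes tested. It was known in 22 of 29 reads (75.9%, Clopper-Pearson 95% interval 56.5% to 89.7%) in replicate 1 and in 9 of 33 (27.3%, 13.3% to 45.5%) in replicate 2. Fisher's exact test gave an adjusted p of 0.00524. The rest was mostly unspliced, 7 reads in replicate 1 and 22 in replicate 2. All were given to models inside the last exon, which makes up 86.0% of the transcript Pdyn-201 of 2386 bases. Spliced Pdyn reads numbered 22 and 11. On spliced models alone the log2 ratio was 0.97 and on known models alone 1.24, in the direction opposite to the ratio over all models (-0.19). The adjusted p was 0.291 and 0.129 in the exact binomial test of these, so neither ratio was separated from counting noise. Unspliced reads were more frequent in replicate 2 over all annotated genes too, where spliced models held 80.4% of reads in replicate 1 and 75.1% in replicate 2. The part of this in the Pdyn result was not tested.

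Across the 10 genes, unspliced reads numbered 51 in replicate 1 and 139 in replicate 2. Of these, 50 and 138 belonged to models that lie inside the last exon of the leading transcript. The ends of unannotated models are nominal, so this places the models and not each read. Models of other genes lay over the 10 genes in few reads. Replicate 2 held antisense reads at Cck (2), Cort (1) and Adcyap1 (1), and replicate 1 held none.

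Several annotated transcripts were in use for Cck. Of known Cck reads, Cck-201 (3 exons, 691 bases) held 1100 in replicate 1 and 1101 in replicate 2, or 91.0% and 90.9%. Fisher's exact test gave an adjusted p of 1, and 1.17% of the 2572 genes tested for the leading transcript were called. Cck-203, a 2-exon transcript, held 84 and 91 reads (6.95% and 7.51%), and Cck-202, which starts at another first exon, held 25 and 19 (2.07% and 1.57%). A read of Cck-201 that lost its start before the first intron has the same single intron as Cck-203, so these cannot be told apart here. GENCODE M21 lists 6 Cck transcripts, and 3 had reads.

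Reads outside the annotated Cck transcripts were rare. An internal exon of 67 bases between the coding exons 2 and 3 (chromosome 9, 121493465 to 121493531), bounded by annotated splice sites, was in 8 reads of replicate 1 and 4 of replicate 2. A model that lacked exon 2, which holds the start codon, had 0 reads in replicate 1 and 3 in replicate 2. Of all introns read in Cck, 99.9% and 99.7% joined annotated sites.

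Pnoc used a pair of donors. Its transcripts Pnoc-201 and Pnoc-202 differ in the donor of the exon before the last, at 65404704 and 65404760. The first donor had 7 reads in replicate 1 and 12 in replicate 2, and the second had 1 and 5. An unannotated donor in the first exon, at 65425396, had 4 reads in each library, against 3 and 8 at the annotated 65425138. Known Pnoc reads were few, 2 of 9 and 7 of 19, and the shares of 22.2% and 36.8% had intervals of 2.81% to 60.0% and 16.3% to 61.6%.

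For Adcyap1, known reads were 7 of 15 in replicate 1 and 9 of 23 in replicate 2, and ISM models without the start of the transcript held 4 and 11. The last exon takes up 76.6% of the 3392 bases of its leading transcript. Crh had 14 of 15 known reads in replicate 1 and 8 of 12 in replicate 2, where the other 4 belonged to an unspliced model of the last exon. That exon holds the entire coding sequence of Crh. Nts had 1 of 2 and 7 of 8 known reads.

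Vip had the lowest known share in replicate 1 of the 6 genes with at least 20 reads in each library. It was known in 18 of 51 reads in replicate 1 (35.3%) and 22 of 57 in replicate 2 (38.6%). Most of the other reads carried exons of Vip-201 with a splice acceptor 3 bases downstream of the annotated one at exon 3, 5 or 6. Cort had the same kind of pair at exon 2. All 4 pairs lie in coding sequence, and a step of 3 bases keeps the reading frame.

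The sequences show the joined exons on the transcript, with the last 12 bases of the exon before, the 3 bases between the acceptors in capitals, and the 12 bases after. Positions are those of the annotated and the downstream acceptor in mm10.
Vip exon 3, upstream acceptor (chromosome 10, 5642469): ttctgtagtgagTAGgctggatgacag
Vip exon 3, downstream acceptor (5642472): ttctgtagtgaggctggatgacag
Vip exon 5, upstream acceptor (5643987): caaacgaatcagCAGcagcatctcgga
Vip exon 5, downstream acceptor (5643990): caaacgaatcagcagcatctcgga
Vip exon 6, upstream acceptor (5644910): tggaaagaggagCAGtgagggagattc
Vip exon 6, downstream acceptor (5644913): tggaaagaggagtgagggagattc
Cort exon 2, upstream acceptor (chromosome 4, 149125473): caggacagtgtgCAGgaagccaccgag
Cort exon 2, downstream acceptor (149125470): caggacagtgtggaagccaccgag
At Vip exon 5 the same 3 bases stand directly before and after the capitals, so a read short of 1 copy could have lost any of them. At the other pairs the 3 bases do not repeat in full. Their closing AG at Vip exons 3 and 6, and their closing G at Cort, also ends the exon before. The lost bases are therefore not placed uniquely at these pairs either.

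At Vip exon 6 the downstream acceptor was used in 16 of 50 reads in replicate 1 and 20 of 54 in replicate 2, or 32.0% and 37.0% (34.5% ± 3.56, SD, n = 2). The 95% intervals were 19.5% to 46.7% and 24.3% to 51.3%. At exon 3 the counts were 8 of 46 and 11 of 53 (17.4% and 20.8%). At exon 5 they were 3 of 50 and 6 of 53 (6.00% and 11.3%). The order of the 3 exons was the same in both libraries, and in each library only the intervals of exons 5 and 6 did not overlap.

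At Cort exon 2 the downstream acceptor was used in 4 of 18 reads in replicate 1 and 4 of 29 in replicate 2, or 22.2% and 13.8%. Its intervals, 6.41% to 47.6% and 3.89% to 31.7%, are the widest of the 4 pairs. None of the 4 downstream sites is an acceptor in GENCODE M21.

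**Figure D4:**
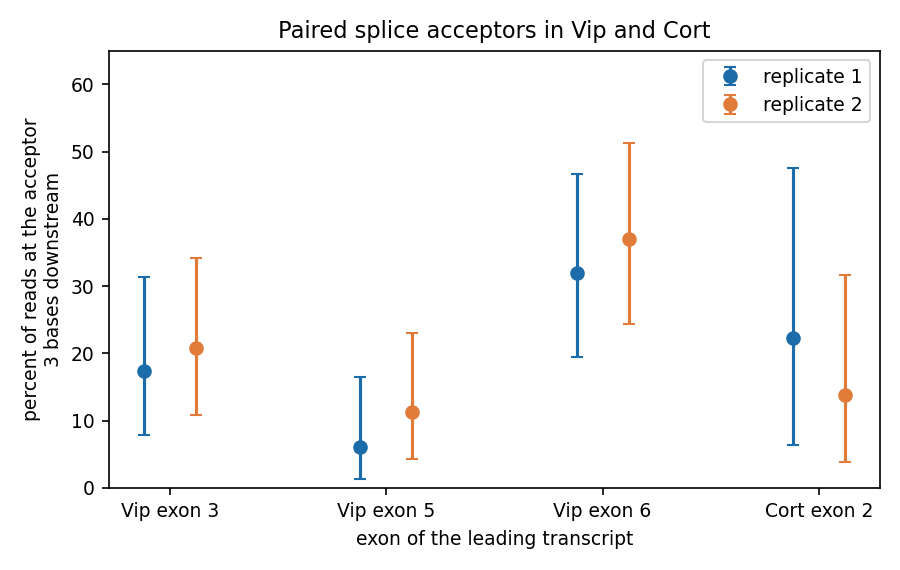
Percent of reads at the splice acceptor 3 bases downstream of the annotated one, for 3 exons of Vip and 1 of Cort, in replicate 1 (left, blue) and replicate 2 (right, orange). Bars are 95% Clopper-Pearson intervals of the read counts. Vip exon 6 is highest at 32.0% and 37.0%, and the intervals of the 2 libraries overlap at every exon.

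Of the 18 annotated acceptors of the 10 genes with at least 10 reads in each library at the pair, 3 had at least 10% of reads at the site 3 bases downstream in both libraries, against 0.513% of 49934 acceptors over all genes. These were Vip exons 3 and 6 and Cort exon 2, and this difference was not tested. Over all genes the downstream site was outside the annotation in 37 of the 256 acceptors so called, 0.0741% of all. Acceptors with any reads in both libraries at an unannotated site 3 bases downstream numbered 233. At 2 bases there were 234 and at 4 bases 214, with 0 at 1 base, 131 at 5 bases and 81 at 6 bases. This looser count leaves out downstream sites that are annotated. It therefore cannot say how frequent a shift of 3 bases was beside other shifts. The part of read errors near splice sites in these shares was not tested.

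Reads that crossed all 3 Vip pairs numbered 46 in replicate 1 and 53 in replicate 2. No downstream acceptor was used in 21 and 25 of them, 1 in 24 and 20, and a combination of 2 in 1 and 8. The commonest single change was exon 6 alone, in 14 and 11 reads. Exons 3 and 6 were shifted together in 1 and 6 reads, and no read used the downstream acceptor at all 3 exons. When either acceptor of each pair was accepted, 40 of 51 Vip reads (78.4%) and 48 of 57 (84.2%) carried all introns that Vip-201 has. For Cort the same count was 18 of 20 and 29 of 29.

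Most receptors of these peptides had reads. Of 21 receptor genes, 16 had reads in both libraries, and Cckar, Crhr2, Npy4r, Sstr5 and Vipr2 had none, which allows up to 2.30 CPM in either library. Summed levels were 550 CPM in replicate 1 and 464 CPM in replicate 2. The 3 with most reads were Ntsr2, a neurotensin receptor known from astrocytes, Sort1, the sorting receptor sortilin that also binds neurotensin, and the somatostatin receptor Sstr2. Ntsr2 had 318 and 238 CPM (278 ± 56.5 CPM, SD, n = 2), Sort1 52.8 and 46.8 CPM, and Sstr2 34.4 and 20.7 CPM. Ntsr2 had 415 and 310 reads, against 2 and 8 reads of the precursor gene Nts.

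Of 12 receptors with at least 10 reads, none was called higher in replicate 1, against 5.44% of all genes tested, and 1 lower, against 1.61%. That gene was Sstr1, with 4 and 21 reads (3.06 and 16.1 CPM). Its log2 ratio was -2.26 with an adjusted p of 0.00661 in the exact binomial test. The median log2 ratio of the 12 was 0.32. Receptors of the precursors with most reads were themselves at lower counts than Ntsr2. Cckbr had 22.2 and 17.6 CPM, Npy1r 19.9 and 33.0 CPM, and Npy5r 9.95 and 6.13 CPM. The receptors of the opioid pair stood at 4.59 and 11.5 CPM for Oprk1 and 19.1 and 24.5 CPM for Oprl1, and that of CRH, Crhr1, at 15.3 and 12.3 CPM.

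**Figure D5:**
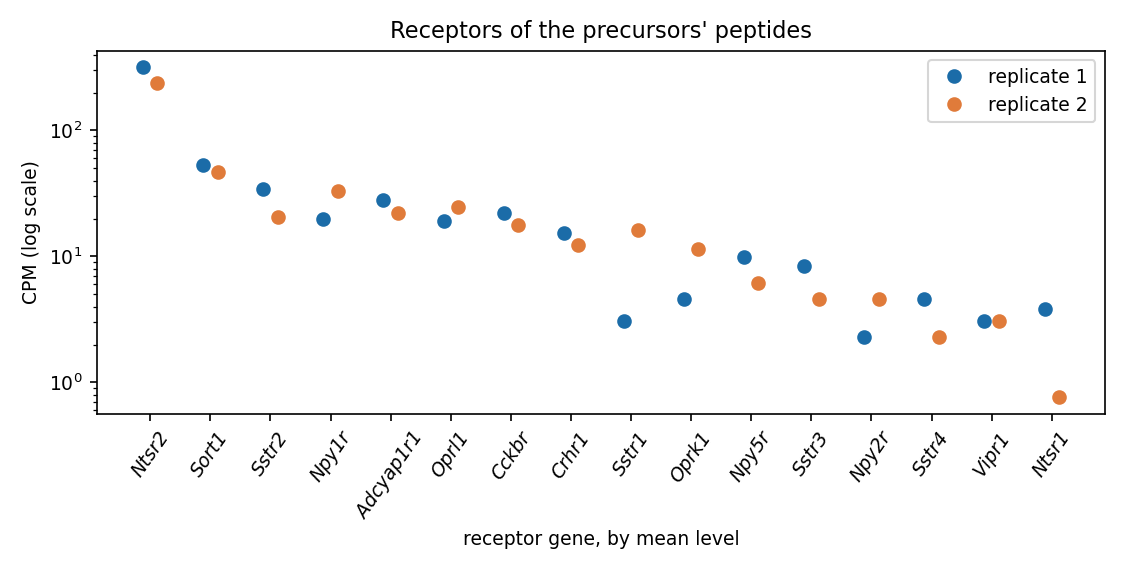
Level in CPM (log axis) of the 16 receptor genes with reads, in replicate 1 (left, blue) and replicate 2 (right, orange), ordered by mean. Ntsr2 stands apart at 318 and 238 CPM, and Sstr1 shows the widest gap of the tested receptors, at 3.06 and 16.1 CPM. The 5 receptors without reads are not drawn.

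In sum, genes of the processing and storage machinery had far more reads than the precursors. All 15 had at least 1 read in each library, Furin with 2 and 1. They summed to 7322 CPM in replicate 1 and 4999 CPM in replicate 2, against 1352 and 1528 CPM for the precursors. Carboxypeptidase E (Cpe), which trims basic residues after cleavage, had 2599 and 1997 CPM. Pcsk1n, the proSAAS inhibitor of convertase 1, had 2552 and 934 CPM, and Scg5, the 7B2 chaperone of convertase 2, had 393 and 496 CPM. Cpe and Pcsk1n together held most of the summed level in both libraries. The precursor Cck, at 955 and 1008 CPM, stood above every other processing gene in both libraries, and above Pcsk1n in replicate 2. Of 13 tested, 2 were called higher in replicate 1 and none lower, against 5.44% and 1.61% of all genes tested. These were Pcsk1n (log2 ratio 1.45, adjusted p = 4.38e-220) and the granin Vgf (29 and 7 reads, log2 ratio 1.97, adjusted p = 0.00421), both by the exact binomial test. The median was 0.11. The convertase genes themselves were at 182 and 194 CPM for Pcsk2 and 6.12 and 13.0 CPM for Pcsk1.

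Of 34 other precursor genes, 21 had a read, and 8 were tested. None was called higher in replicate 1 and 1 was called lower, Cartpt, with 20 and 44 reads (log2 ratio -1.12, adjusted p = 0.0243, exact binomial test). The median log2 ratio of the 8 was -0.29. Penk, the enkephalin precursor, had 251 and 304 CPM, the apelin gene Apln 32.1 and 31.4 CPM, and Tac1, which encodes substance P, 24.5 and 35.3 CPM. Hypothalamic peptides were at or near 0, with no read of Oxt or Hcrt and 8 and 7 reads in sum over Oxt, Avp, Hcrt, Pmch, Agrp and Pomc. All 5 striatal markers had reads, 151 and 124 CPM in sum, of which 1 was called higher and 1 lower in replicate 1. Pdyn, Penk and Tac1 are known also from striatum, and the part of striatal tissue in their levels was not tested.

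Of 23 interneuron genes other than the precursors, 22 had a read in both libraries, and Dlx6 (0 and 1 reads) and Chodl (1 and 2 reads) were under 3 counts in each. Of these genes 19 were tested, and 1 was called higher in replicate 1 and none lower, with a median log2 ratio of -0.0025. Summed levels were 1007 CPM in replicate 1 and 994 CPM in replicate 2. Lamp5, used as a marker of neurogliaform cells among interneurons, had 279 and 330 CPM, and Gad1, which makes GABA, had 174 CPM in both. Which cells gave the Lamp5 reads cannot be told in whole tissue. Cxcl14, the gene called, had 247 and 97 reads (log2 ratio 1.34, adjusted p = 2.05e-14, exact binomial test). Gad2, the other GABA-synthesis gene, had fewer reads in replicate 1, 72 against 142 in replicate 2 (log2 ratio -0.98, adjusted p = 3.27e-05 in the same exact test), just inside the 2-fold threshold. Gad2, Dlx6 and Chodl were named after their values were seen, as were the receptors beyond Ntsr2, Sort1, Sstr2 and Sstr1 and the convertases.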

How the data were processed

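The deposited tables hold counts: whole reads given by the authors to each transcript model in each library, not normalized. Per the file headers, they also hold other values (exon number and length per model), and the deposited annotations give other values, the mm10 positions of GENCODE M21 features and of models added by TALON. Neither aligner nor instrument is given in the sources used here. Model ends are largely those of annotated ends, so the ends of unannotated models are nominal.

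Counts were summed per gene, divided by the library total and multiplied by 1e6 (CPM). Values are the mean and SD of 2 libraries with exact Poisson intervals, and shares have Clopper-Pearson intervals (95%). Intervals and limits cover counting error only. A count of 0 was taken to allow 3 counts, a fixed limit that is not the upper end of the exact two-sided interval. With 1 group, libraries were compared with each other by an exact two-sided binomial test in genes with at least 10 reads, and shares by two-sided Fisher's exact test in genes with at least 20 reads in each library, all with Benjamini-Hochberg adjustment over all genes tested. Calls needed an adjusted p under 0.05 and a log2 ratio of at least 1 (0.5 reads added) or 10 percentage points. edgeR 4.0.16 and DESeq2 1.42.0 gave scaling factors for alternatives only. Python 3.11.15 and scipy 1.17.1 were used, and the tests were checked on simulated data. Protein motifs and alignments, planned with the rest, were not run, and no protein sequence was used here.

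The genes and lists were chosen with earlier results of these data known. Named were the 10 precursors, the 3 genes of each list with the highest mean CPM and every list gene called different. Gad2, Dlx6, Chodl and some receptors and convertases were named outside this rule, after their values were seen.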

Additional observations from a re-analysis of the deposited data

How the results depend on the processing

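No paired analysis was possible because the 2 libraries form 1 group. No precursor with enough reads to be tested was called different between the libraries under the alternatives run. All 10 were tested with edgeR or DESeq2 scaling, with no minimum of reads and with 1 read added, 9 with spliced models (not Nts), 8 with known models (not Pnoc or Nts) and 5 at 50 reads (Cck, Npy, Sst, Vip and Pdyn). Over all genes tested 593 to 918 were called, the fewest at 50 reads, where fewer genes were tested. The summed level of the 10 genes was 1291 CPM with known models only, against 1440 CPM, and 1352 to 1528 CPM when either library was left out. Their known share, 89.8% as the mean of both libraries, was 93.5% without genomic models, 79.5% without Cck (an alternative chosen after seeing the data) and 87.3% to 92.3% when either library was left out. With at least 50 known reads in each library, 17 genes had a leading transcript called different, against 30, and fewer genes were tested. Lists kept their counts of calls except at 50 reads (receptors 0 against 1, processing genes 1 against 2) and with known or spliced models (interneuron genes 3 against 1). Single levels moved beyond their spread in 9 settings of 60, all with known or spliced models only. The 60 include settings with either library left out. With 2 libraries these cannot move a level beyond its SD, so they say nothing of how stable a level is. Genes under about 10 reads, Nts above all, are limited by depth.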
